A study of Drosophila melanogaster with 24 samples.

Results

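The Cpr genes encode cuticle proteins of Drosophila melanogaster that carry the Rebers and Riddiford consensus, a chitin-binding sequence, and each is named after the chromosome band where it lies. All genes whose FlyBase symbol is Cpr followed by a number were taken, which leaves out the cytochrome P450 reductase called Cpr. This gave 70 genes of 14220, 35 on chromosome arm 3L, 21 on 2R, 5 on 2L, 5 on 3R and 4 on X. Insect cuticle is a composite of chitin fibres and structural proteins secreted by the epidermis. In adult flies cuticle secretion goes on for some days after eclosion, when endocuticle is laid down beneath the cuticle that was made in the pupa, and different Cpr genes are used for larval, pupal and adult cuticle.

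The abdominal carcass of mated females about 4 days old was sequenced, that is, the body wall and its fat body, dissected free of gonads, gut and the bulk of the tubules. Selected and Control are the names of the evolutionary regimes, with 6 Selected populations (S1 to S6) and 6 Control populations (C1 to C6), in a study of evolved and plastic responses to undernutrition of larvae, and each population was raised on both a poor and a standard larval diet, which gave 4 groups of 6 libraries. The poor diet held 0.25 of the standard concentration of yeast, sugars and cornmeal. From day 1 after emergence every adult was on standard food, so diet refers to the larval food only, and each library came from 1 pool of 10 carcasses, so a population on a diet has 1 library and the population is the replicate.

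Of the 24 libraries, 23 held 29.4 to 31.5 M estimated counts, and S2 on standard diet held 22.4 M. Genes with rRNA in their symbol took 2.40 to 5.40% of the counts of a poor-diet library. On standard diet they took 0.726 to 2.58%, except in S2, where they took 9.28%. The part of this share in the diet differences was not tested. The sample titles name the other diet for all 24 libraries and the other regime for 12, and groups here follow the characteristics. The titles also put no library in the same population. If they were right, the diets would be exchanged, and the populations, their pairing and the Selected and Control groups would be different ones, so the values given here would have to be grouped anew. One library stood apart in this gene family. The library of C3 on standard diet held 90 genes above 1 CPM (counts relative to library size, after TMM normalisation) that were also at least 10 times the next highest library, and 9 of them were Cpr genes. In the other libraries the number of such genes was between 0 and 20, with no Cpr gene among them.

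A small number of Cpr genes accounted for most of the family's RNA. On the deposited TPM scale, which is per transcript length and can be compared between genes, 15 of the 70 genes averaged above 10 TPM over the 24 libraries, 9 averaged between 1 and 10 TPM, and 46 averaged below 1 TPM. Cpr49Ae averaged 1402 ± 730 TPM (SD, n = 24 libraries) and ranged between 386 and 3252 TPM. Cpr49Ab averaged 1296 ± 180 TPM (SD, n = 24 libraries). Both lie in the 49A cluster on 2R, with Cpr49Ac and Cpr49Ad between them. Together they supplied 64.9 to 81.8% of the family's summed TPM in each library, with a median of 77.1%. The share of 64.9% was that of C3 on standard diet.

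The next levels were far lower. Cpr92F followed at 158 ± 120 TPM and Cpr65Au at 131 ± 62.6 TPM, both as mean and SD over 24 libraries. Cpr47Ea averaged 109 TPM, Cpr67B 107 TPM, Cpr97Eb 54.0 TPM, Cpr49Ah 48.4 TPM, Cpr100A 46.5 TPM, Cpr62Bb 41.8 TPM and Cpr57A 41.1 TPM. Neighbours in the order from Cpr92F to Cpr67B, and again from Cpr97Eb to Cpr57A, differed by less than the SD of the higher one. Below these stood Cpr62Bc at 18.9 TPM, Cpr97Ea at 13.9 TPM, Cpr60D at 13.5 TPM and Cpr76Bd at 12.4 TPM.

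**Figure D1:**
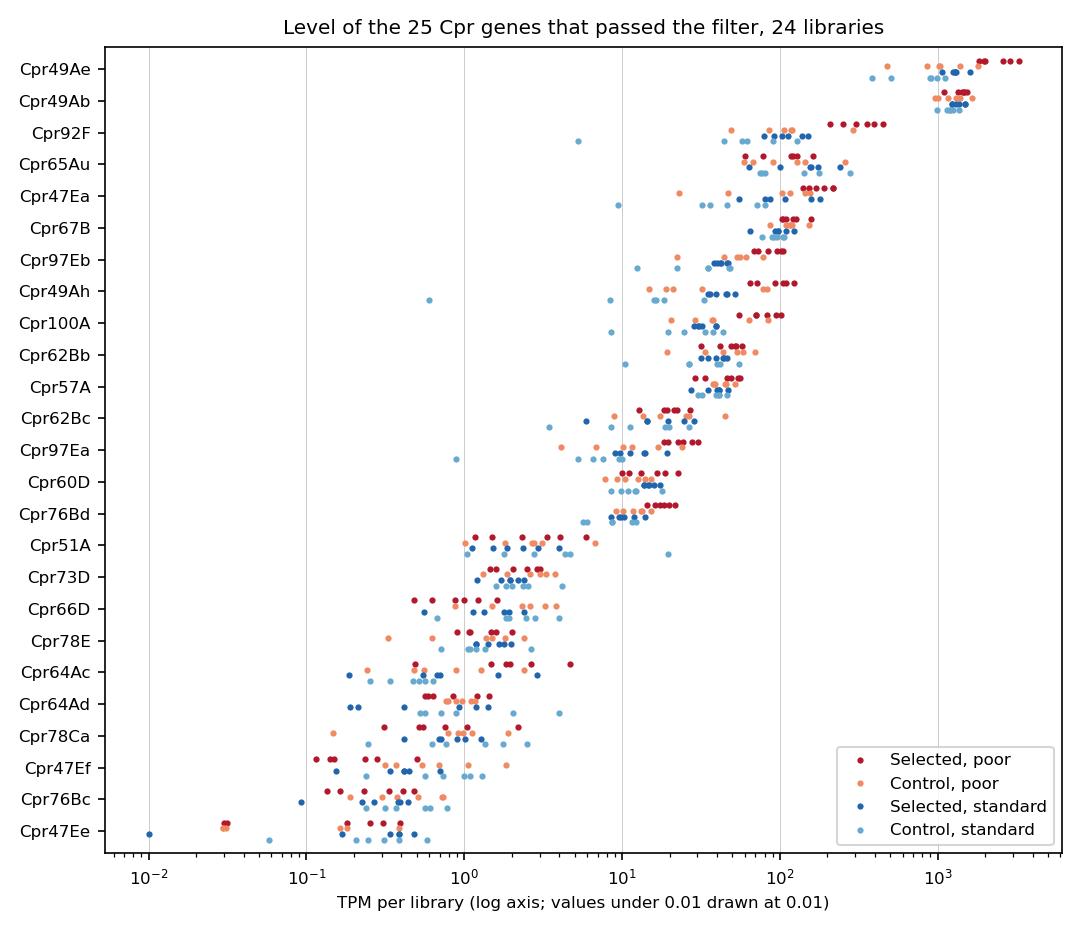
TPM per library on a log axis for the 25 Cpr genes that passed the filter of the diet comparison, in order of mean level, with 1 point per library coloured by group. Cpr49Ae and Cpr49Ab lie far to the right of all others, and the points of Cpr92F and Cpr49Ah spread over a much wider range than those of Cpr49Ab.

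The members also differed in how much they varied between libraries, here as the ratio of the highest to the lowest CPM of a gene. Cpr57A varied 1.99-fold, Cpr49Ab 2.00-fold and Cpr67B 3.07-fold. In contrast, Cpr49Ah varied 205-fold, between 0.508 and 104 CPM, and Cpr92F 71.0-fold, between 8.75 and 621 CPM. Cpr97Ea varied 31.0-fold, Cpr47Ea 23.7-fold, Cpr100A 11.1-fold, Cpr49Ae 7.88-fold and Cpr97Eb 7.80-fold. The lowest library of these 7 genes, all above 10 TPM on average, was C1 on standard diet, as it was for Cpr62Bc, which varied 12.5-fold. Wide ranges were also found in genes of low level, with other lowest libraries: Cpr64Ad varied 22.1-fold (lowest in S2 on standard diet), Cpr64Ac 21.9-fold (S6 on standard diet), Cpr51A 19.6-fold (S1 on poor diet) and Cpr47Ef 18.6-fold (S2 on poor diet). In C1 on standard diet Cpr49Ah, Cpr92F and Cpr97Ea lay apart from the other 5 Control libraries on standard diet.

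Summed over the family, TPM was highest in the Selected libraries on poor diet. The sum was 3920 at the lowest, 4917 at the median and 6140 at the highest in Selected populations on poor diet. In Control populations on poor diet the same 3 values were 1896, 2956 and 4276, in Selected populations on standard diet 2812, 3436 and 3751, and in Control populations on standard diet 1972, 2654 and 2884. The lowest Selected library on poor diet lay above every library on standard diet. The sum of 2884 was that of C3, where genes that passed the filter of the diet comparison gave 88.2% of it. In every other library these genes gave at least 99.8%. The sum was higher on poor than on standard diet in 10 of 12 populations, and the family took between 0.190 and 0.614% of all TPM in a library.

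Tests were made with edgeR's quasi-likelihood F test on the estimated counts summed per gene, with Benjamini-Hochberg adjustment over all genes tested and a call at an adjusted p below 0.05. For the diet comparison, with population as a block, 25 of the 70 genes passed the filter on low counts and 45 did not. On poor diet 7 Cpr genes were higher and 0 lower, and 18 were not called. Over all 10184 genes tested, 0.864% were called higher on poor diet. The median log2 fold change was 0.16 over the 25 Cpr genes and -0.03 over all genes tested. Genes with low counts in all groups could not enter the test, so the 25 are not the whole family. An unadjusted p below 0.05 was reached by 12 of the 25, against 17.6% of all genes.

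The largest diet difference was that of Cpr92F (chromosome 3R, 20669571 to 20672821, plus strand, BDGP6.54). It had 84.3 CPM at the lowest, 324 at the median and 621 at the highest on poor diet, against 8.75, 141 and 273 CPM on standard diet (n = 12 libraries each). The diets overlapped over all populations, but within a population the poor-diet library was the higher one in 11 of 12. The log2 fold change was 1.38 ± 0.26 (SE, edgeR adjusted p = 0.0312).

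Cpr49Ah (2R, 12413962 to 12415170, plus strand), at one end of the 49A cluster, was of similar size. Its lowest, median and highest values were 12.8, 56.5 and 104 CPM on poor diet and 0.508, 24.4 and 34.1 CPM on standard diet. The log2 fold change was 1.34 ± 0.28 (SE, edgeR adjusted p = 0.0406), with the poor diet higher in 11 of 12 populations. The value of 0.508 CPM was that of C1, where the difference between the diets was 4.48 on the log2 scale. Without C1 the log2 fold change of Cpr49Ah was 1.15 (edgeR adjusted p = 0.0355), so the call was kept. Of the 12 fits that left out 1 population, however, only 2 kept the call of Cpr49Ah.

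Cpr100A (3R, 30867521 to 30869184, plus strand) and the adjacent pair Cpr97Ea (27083130 to 27087778) and Cpr97Eb (27089704 to 27091130), both on the minus strand of 3R, also rose on poor diet. Cpr100A had 25.4, 75.1 and 115 CPM on poor diet as lowest, median and highest value, against 10.4, 33.6 and 56.2 CPM on standard diet. This was a log2 fold change of 0.97 ± 0.17 (SE, edgeR adjusted p = 0.0232). Cpr97Eb had 20.8, 57.2 and 88.3 CPM on poor diet, against 11.3, 32.2 and 46.3 CPM on standard diet. Both genes overlapped between the diets and were higher on poor diet in 11 of 12 populations. The log2 fold change of Cpr97Eb was 0.85 ± 0.15 (SE, edgeR adjusted p = 0.0232). Its neighbour Cpr97Ea had 5.68, 23.4 and 37.1 CPM on poor diet, against 1.20, 11.6 and 27.9 CPM on standard diet. Its log2 fold change was 0.92 ± 0.18 (SE, edgeR adjusted p = 0.0375), again with 11 of 12 populations higher on poor diet.

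Cpr47Ea (2R, 11251751 to 11253398, minus strand) opens a cluster of 7 Cpr genes in band 47E. It had 16.3, 89.4 and 155 CPM on poor diet as lowest, median and highest value, against 6.54, 42.0 and 134 CPM on standard diet. Its log2 fold change was 0.94 ± 0.17 (SE, edgeR adjusted p = 0.0281), with 10 of 12 populations higher on poor diet. An exon of the odorant receptor gene Or47a overlaps Cpr47Ea on the opposite strand, and the strand setting of the counting was not known here. Or47a was listed at no more than 0.817 CPM in any library. Cpr76Bd (3L, 19532743 to 19538289, plus strand) had 34.2, 55.2 and 77.5 CPM on poor diet and 20.7, 33.8 and 63.1 CPM on standard diet. Its difference was the smallest of the 7, a log2 fold change of 0.62 ± 0.13 (SE, edgeR adjusted p = 0.0439), with 10 of 12 populations higher.

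**Figure D2:**
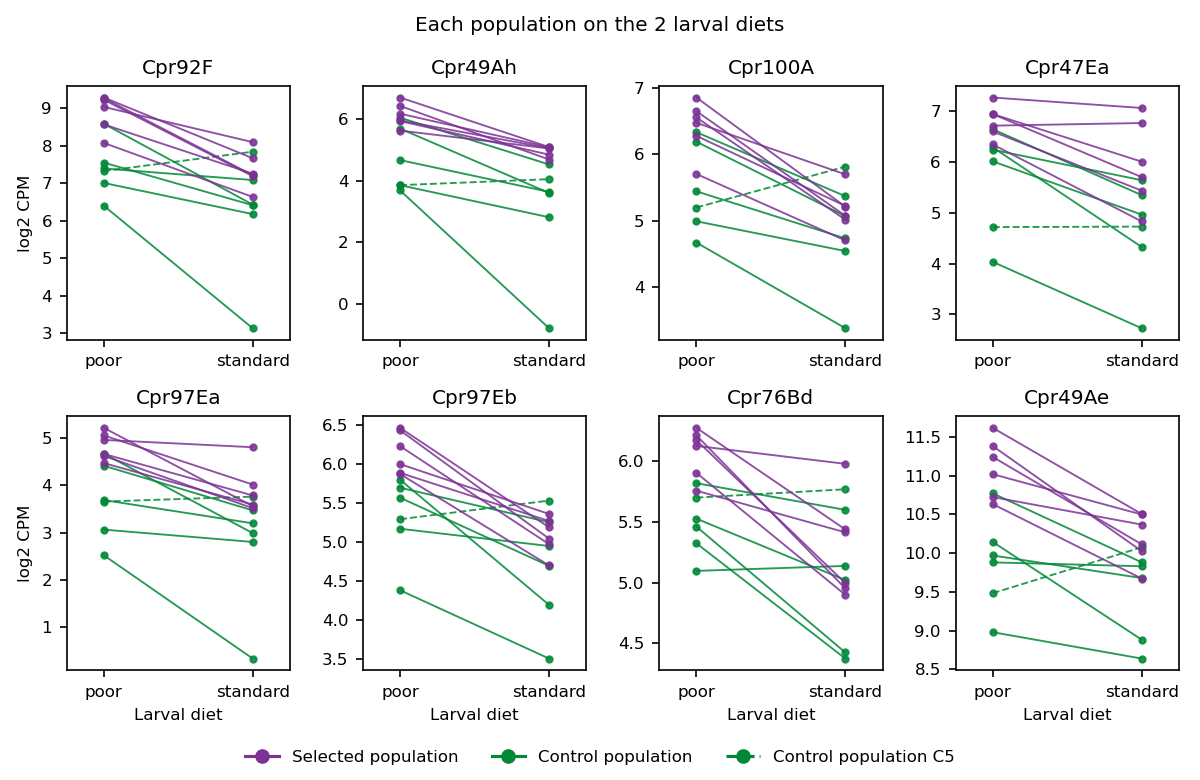
Log2 CPM of the 7 Cpr genes called between the diets and of Cpr49Ae, with a line for each of 12 populations between its poor-diet library (left) and its standard-diet library (right). Most lines run downwards to standard diet; the dashed line of C5 runs upwards in all of the 7 called genes, and C1 on standard diet is the lowest point in 6 of them.

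Population C5 was the exception in all 7 called genes, with differences, poor minus standard, between -0.61 for Cpr100A and -0.01 for Cpr47Ea on the log2 CPM scale. In the Selected populations 6 of the 7 genes were higher on poor diet in all 6 populations, and Cpr47Ea was at -0.05 in S4. At least 11 of 12 populations were higher on poor diet in 6 of the 25 Cpr genes tested, against 2.08% of all genes tested.

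Which genes were called depended on the populations included. With each population left out in turn, 0 to 8 Cpr genes were called. The count was 0 without S1, S2, S3 or S5, 2 without C4, 3 without C3 or S4, 4 without C1, C2 or S6, 5 without C6 and 8 without C5. Of these 12 fits, Cpr100A and Cpr97Eb were each called in 8, Cpr47Ea in 5 and Cpr97Ea in 4. Cpr92F was called in 3 of them, and Cpr49Ah and Cpr76Bd in 2 each. The shares of all genes called in these fits are not given here. Without C3, whose library on standard diet stood apart, Cpr100A, Cpr97Eb and Cpr47Ea were still called. Without the population block no Cpr gene was called by edgeR, with 10 at an unadjusted p below 0.05. The log2 fold change of each of the 7 genes was positive in every one of these fits.

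Cpr49Ae, the gene with the highest level, missed the threshold. It had 505, 1639 and 3142 CPM on poor diet as lowest, median and highest value, against 399, 993 and 1454 CPM on standard diet, and 11 of 12 populations were higher on poor diet. Poor minus standard, the log2 fold change was 0.64 ± 0.16 (SE, edgeR adjusted p = 0.0718). Cpr49Ab, which lies in the same 38.5 kb cluster (2R, 12376626 to 12415170), had 587, 839 and 1096 CPM on poor diet and 577, 860 and 1157 CPM on standard diet. Its log2 fold change was 0.03 ± 0.11 (SE, edgeR adjusted p = 0.903), with 6 of 12 populations higher on poor diet. So 3 genes of the 49A cluster passed the filter, of which only Cpr49Ah was called, and the other 5 (Cpr49Aa, Cpr49Ac, Cpr49Ad, Cpr49Af and Cpr49Ag) were below it.

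Among the other well expressed members, Cpr67B had a log2 fold change of 0.29 ± 0.08 (SE, edgeR adjusted p = 0.112) and Cpr62Bb of 0.37 ± 0.13 (SE, edgeR adjusted p = 0.183). Cpr67B was at 74.1 to 128 CPM on poor diet, against 41.8 to 96.7 CPM on standard diet. Cpr62Bb was at 15.2 to 50.3 CPM on poor diet, against 8.10 to 44.8 CPM on standard diet. Both overlapped widely between the diets and neither was called. Cpr65Au, which overlaps an antisense RNA gene, was the well expressed member with a negative value. It ranged between 16.8 and 71.5 CPM on poor diet, against 16.4 and 88.0 CPM on standard diet, and its log2 fold change was -0.28 ± 0.13 (SE, edgeR adjusted p = 0.277). Cpr64Ac, at 1.07 CPM on average on poor diet and 0.521 CPM on standard diet, had a log2 fold change of 0.96 ± 0.29 (SE, edgeR adjusted p = 0.126).

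The remaining 12 genes that passed the filter were not called between the diets. Their log2 fold changes lay between -0.95 for Cpr47Ee and 0.49 for Cpr62Bc. Cpr57A, which shares exon sequence with the odorant-binding protein gene Obp57d on the same strand, was at 0.16, and Obp57d itself was listed at no more than 0.652 CPM. Cpr73D, at 0.15, overlaps the abundant Ogdh gene on the opposite strand, which had a median of 655 CPM, so its averages of 5.06 CPM on poor and 4.62 CPM on standard diet are uncertain. The others were Cpr47Ef at -0.49, Cpr66D at -0.27, Cpr78Ca at -0.19, Cpr78E at -0.17, Cpr76Bc at -0.11, Cpr60D at -0.05, Cpr51A at 0.01 and Cpr64Ad at 0.14.

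**Figure D3:**
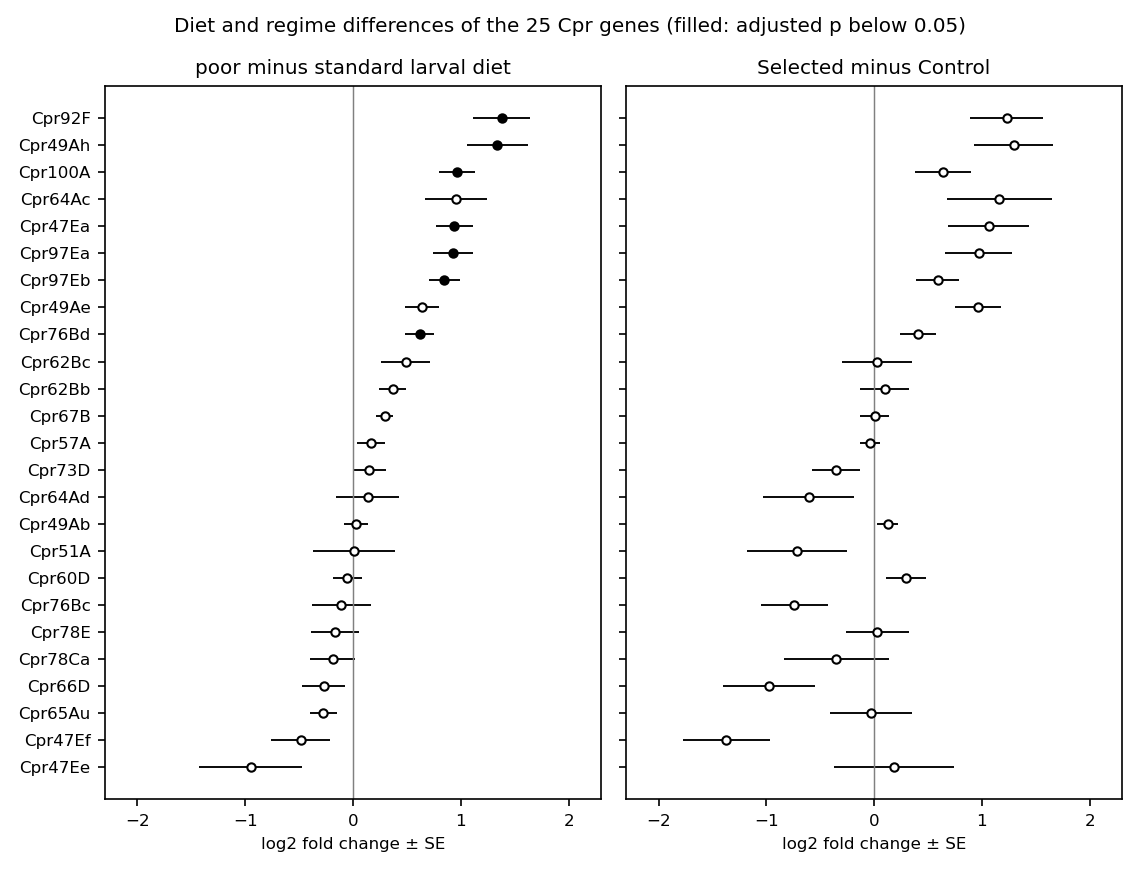
Log2 fold change with its SE (bars) for the 25 Cpr genes that passed the filter of the diet comparison, poor minus standard diet on the left and Selected minus Control on the right, with filled points for an adjusted p below 0.05. The 7 filled points all lie right of 0 in the diet panel, and the regime panel has none, although the same 7 genes lie right of 0 there too.

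For the comparison of regimes, the 2 libraries of each population were summed, which gave 6 Selected and 6 Control populations. None of the 30 Cpr genes tested was called by edgeR, where 0.0289% of all 10380 genes were called. An unadjusted p below 0.05 was reached by 13 of the 30, against 10.6% of all genes. DESeq2 called 4 (Cpr47Eb, Cpr49Ae, Cpr49Ah and Cpr92F), where it called 2.05% of all genes. Limma-voom with population as a random effect called 2 (Cpr49Ae and Cpr49Ah), where it called 1.23% of all genes. Cpr47Eb is low in Control populations and could pass the filter only through the Selected populations. It is counted among the 13 and among the 4, but neither its p, its call nor its separation is read as support. The median log2 fold change, Selected minus Control, was 0.11 over the 30 Cpr genes and 0.01 over all genes tested.

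Cpr49Ae had the smallest p. The mean of a population's 2 libraries was 1202 CPM at the lowest, 1763 at the median and 2298 at the highest in Selected populations, against 452, 904 and 1346 CPM in Control populations. Only the highest Control population, C4, reached into the range of the Selected populations. Its log2 fold change was 0.96 ± 0.21 (SE, edgeR adjusted p = 0.153). Cpr92F had 184, 376 and 412 CPM in Selected populations and 46.5, 144 and 235 CPM in Control populations, again with an overlap. Selected minus Control, the log2 fold change was 1.23 ± 0.34 (SE, edgeR adjusted p = 0.208).

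The regimes did not overlap in 3 of the 30 genes, measured by the mean log2 CPM of a population, against 0.79% of all genes tested. These were Cpr49Ah and Cpr97Ea, and Cpr47Eb, which entered only through the regime where it is high. Cpr49Ah had 41.3 to 69.2 CPM in Selected populations and 6.64 to 44.6 CPM in Control populations as means of 2 libraries. The mean CPM of C4 thus reached into the Selected range, although its mean log2 CPM did not. Its log2 fold change was 1.30 ± 0.37 (SE, edgeR adjusted p = 0.235). Cpr97Ea had 17.1 to 29.5 CPM in Selected populations and 3.44 to 16.7 CPM in Control populations. Cpr97Ea thus had a log2 fold change of 0.97 ± 0.31 (SE, edgeR adjusted p = 0.280). Cpr47Eb was nearly silent, at 0.202 to 0.352 CPM in Selected populations and 0 to 0.129 CPM in Control populations, and its fitted log2 fold change of 1.92 ± 0.50 (SE, edgeR adjusted p = 0.189) rests on 122 counts in all.

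All of the 7 genes that rose on poor diet had positive regime differences, none of them called. Besides those given, Cpr47Ea was at 1.06 ± 0.38, Cpr100A at 0.64 ± 0.26, Cpr97Eb at 0.59 ± 0.20 and Cpr76Bd at 0.41 ± 0.17 (log2 fold change and SE). The remaining well expressed members lay near 0, with Cpr49Ab at 0.13, Cpr62Bb at 0.10, Cpr67B at 0.00, Cpr65Au at -0.03 and Cpr57A at -0.04. The lowest value was that of Cpr47Ef, at 0.290 to 1.07 CPM in Selected populations against 0.530 to 2.83 CPM in Control populations, with a log2 fold change of -1.37 ± 0.40 (SE, edgeR adjusted p = 0.256). It lies in the same 26.7 kb cluster of band 47E as Cpr47Ea and Cpr47Eb. Cpr66D at -0.97 and Cpr76Bc at -0.74 were also lower in Selected populations at an unadjusted p below 0.05, while Cpr64Ac was higher at 1.16, none of them called.

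The tested Cpr genes were then read within each regime and each diet. In the Selected populations alone, 4 of 25 Cpr genes were called, all higher on poor diet, where 0.427% of all genes were called higher. These were Cpr92F at 1.57 ± 0.16 (SE, edgeR adjusted p = 0.0211), Cpr100A at 1.27 ± 0.14 (0.0214), Cpr97Eb at 1.06 ± 0.13 (0.0257) and Cpr49Ah at 1.18 ± 0.16 (0.0334), as log2 fold changes. Cpr92F had 269, 559 and 621 CPM as lowest, median and highest value in Selected populations on poor diet, against 99.3, 150 and 273 CPM on standard diet. All 6 Selected populations were higher on poor diet in each of the 4 genes. With a Selected population left out the count was 0 without S1, S2 or S3, 2 without S5 and 3 to 5 without the others, and DESeq2 called 8, where it called 3.96% of all genes. An unadjusted p below 0.05 was reached by 10 of 25 Cpr genes and 10.6% of all genes.

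In the Control populations alone, edgeR called none of 24 Cpr genes, and none of the 9761 genes tested. DESeq2 called Cpr47Ea, where it called 0.143% of all genes. An unadjusted p below 0.05 was reached by 10 of the 24, against 4.02% of all genes. The log2 fold changes were 1.54 ± 0.52 (SE) for Cpr49Ah, 1.04 ± 0.24 for Cpr47Ea, 0.90 ± 0.31 for Cpr97Ea, 0.67 ± 0.24 for Cpr100A and 0.63 ± 0.23 for Cpr97Eb, each with 5 of 6 populations higher on poor diet. Cpr92F had 84.3, 164 and 383 CPM as lowest, median and highest value in Control populations on poor diet, against 8.75, 85.7 and 229 CPM on standard diet.

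The difference of the diet response between the regimes was tested as an interaction. EdgeR called none of 25 Cpr genes and none of all genes, with 0 of 25 at an unadjusted p below 0.05, against 1.52% of all genes. DESeq2 and limma-voom called 0 as well. The smallest unadjusted p was that of Cpr100A, with an interaction of 0.60 ± 0.29 (SE) on the log2 scale, Selected minus Control, and an edgeR adjusted p of 1.00. The calls within the Selected populations and their absence in the Control populations therefore do not show a different diet response.

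On poor diet alone, edgeR called none of 24 Cpr genes between Selected and Control populations, where 0.0102% of all genes were called. An unadjusted p below 0.05 was reached by 11 of the 24 and by 9.9% of all genes, and DESeq2 called 4 (Cpr49Ae, Cpr76Bd, Cpr92F and Cpr97Eb), against 2.05% of all genes. Without C3, edgeR called Cpr92F. Cpr49Ae had 1588, 2248 and 3142 CPM as lowest, median and highest value in Selected populations, against 505, 973 and 1748 CPM in Control populations, with a log2 fold change of 1.18 ± 0.27 (SE, edgeR adjusted p = 0.165). Cpr97Eb, not called by edgeR, was at 58.6 to 88.3 CPM in Selected and 20.8 to 55.7 CPM in Control populations on poor diet. On standard diet alone, none of 25 Cpr genes was called by edgeR or by DESeq2, where 0.0102% of all genes were called by edgeR. There 4 of the 25 reached an unadjusted p below 0.05, against 6.18% of all genes. Cpr49Ae then had 816, 1216 and 1454 CPM in Selected populations, against 399, 865 and 1079 CPM in Control populations.

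**Figure D4:**
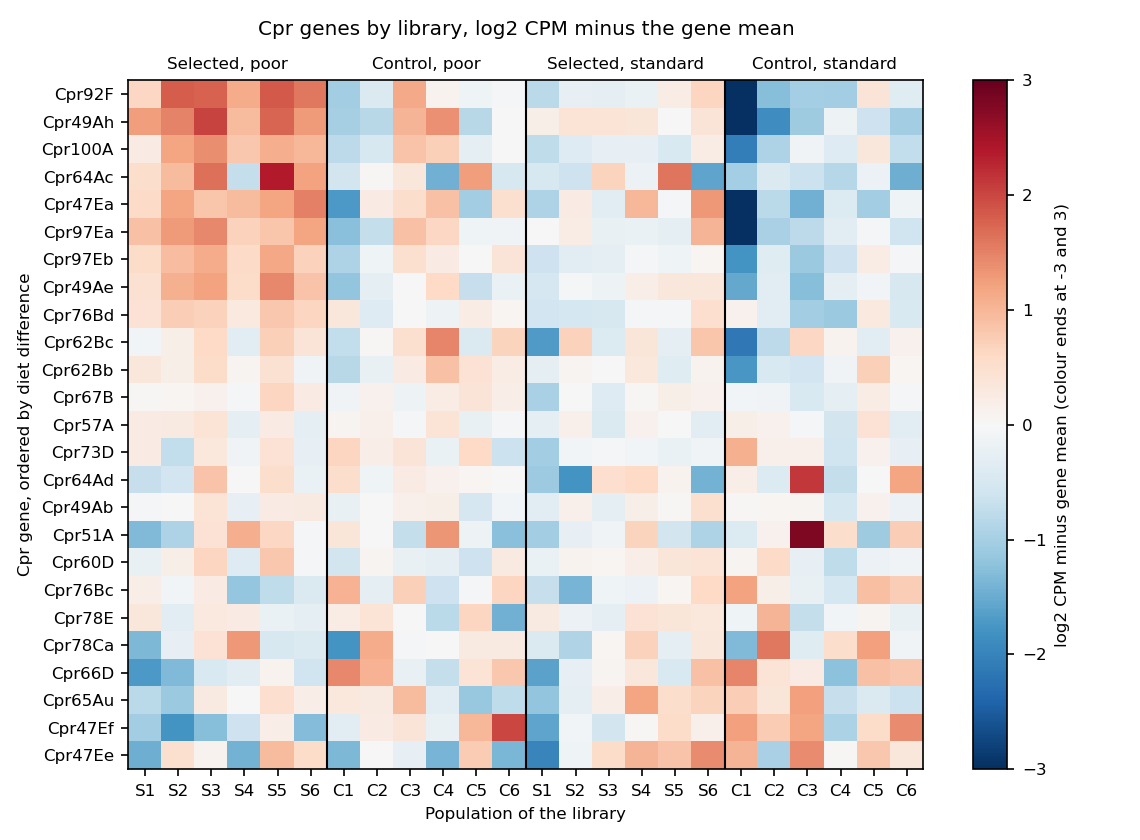
Log2 CPM minus the mean of the gene for the 25 Cpr genes (rows, ordered by diet difference) in the 24 libraries (columns, in 4 groups of 6 populations), with colours ending at -3 and 3. Most of the upper 9 rows are red in Selected populations on poor diet and darkest blue in C1 on standard diet; Cpr51A and Cpr64Ad are darkest red in C3 on standard diet.

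Some of the Cpr genes varied together, while other members with wide ranges followed them less closely or not at all. Over the 24 libraries, which share populations, diets and regimes, Pearson's r of log2 CPM with Cpr92F was 0.95 for Cpr97Ea, 0.94 for Cpr97Eb, 0.93 for Cpr100A, 0.92 for Cpr49Ah, 0.86 for Cpr49Ae and 0.85 for Cpr47Ea. Of the 10183 other genes compared, 40 had an r above 0.8, or 0.393%, and 6 of these were Cpr genes. The other Cpr genes were lower, with 0.76 for Cpr62Bb, 0.54 for Cpr76Bd, 0.54 for Cpr64Ac, 0.35 for Cpr49Ab, 0.12 for Cpr57A, -0.06 for Cpr64Ad, -0.10 for Cpr51A, -0.13 for Cpr65Au and -0.43 for both Cpr66D and Cpr47Ef. The 5 genes most like Cpr92F over all genes were CG7203 (r = 0.97), Obp83g (0.95), MFS9 (0.95), Cpr97Ea and CG15080 (0.95). These values describe 24 libraries and were not tested.

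The 45 genes below the filter of the diet comparison include most of those in the larger clusters. Cpr65Ay had no count in any library, and 3 counts, the limit that a count of 0 allows, correspond to 0.00418 CPM over the 718 M counts of all libraries. Cpr65Aw, Cpr72Eb and Cpr12A had 1 count each. In C3 on standard diet, 23 of the 45 had their highest value.

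The 9 Cpr genes that were at least 10 times the next library there were Cpr65Ax1 at 26.6 CPM, Cpr47Eg at 21.7, Cpr65Ax2 at 18.5, Cpr65Ea at 7.76, Cpr31A at 6.81, Cpr56F at 6.39, Cpr78Cc at 6.36, Cpr65Av at 5.06 and Cpr49Ag at 1.40 CPM. The next highest library held between 0.0313 CPM for Cpr65Ax1 and 0.207 CPM for Cpr47Eg. The same population on poor diet held at most 0.0626 CPM of any of the 9. Cpr65Ax1 and Cpr65Ax2 are near-identical copies, so the split of counts between them is uncertain, but it does not bear on their sum in this library. With them stood 9 genes of the same protein family that have other names, led by Lcp65Ag2 at 62.6 CPM, Lcp65Ag1 at 48.1 CPM and Lcp65Ag3 at 47.8 CPM. Also with them stood 9 Tweedle genes, another family of cuticle proteins, led by TwdlM at 40.4 CPM and TwdlN at 34.6 CPM. Lcp stands for larval cuticle protein. Of the Cpr genes that passed the filter, Cpr51A had its highest value in this library, at 9.26 CPM against 3.33 CPM in the next, as did Cpr64Ad at 2.93 CPM against 1.48 CPM and Cpr65Au at 88.0 CPM against 84.2 CPM.

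**Figure D5:**
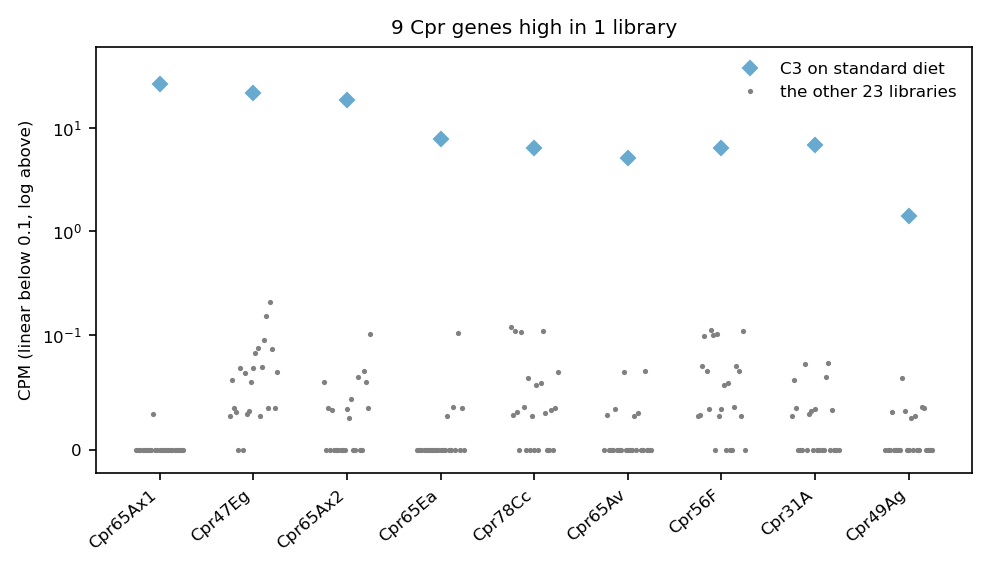
CPM of the 9 Cpr genes below the filter that were at least 10 times the next library in C3 on standard diet (diamonds), with the other 23 libraries as grey points, on an axis that is linear below 0.1 and log above. The diamonds lie between 1.40 and 26.6 CPM and no grey point lies above 0.207 CPM.

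The rest of the genes below the filter stayed low. Cpr11A reached 3.28 CPM in C3 on standard diet and 1.03 CPM in the next library. Cpr78Cb, Cpr49Af, Cpr50Cb, Cpr76Bb, Cpr35B, Cpr67Fa2, Cpr65Ec, Cpr67Fa1, Cpr76Ba, Cpr23B, Cpr66Cb, Cpr30F and Cpr49Ad also had their highest value there, between 0.0954 and 0.859 CPM. Elsewhere the highest values were 0.518 CPM for Cpr72Ec, 0.481 for Cpr47Eb, 0.476 for Cpr47Ec, 0.412 for Cpr30B, 0.382 for Cpr62Ba, 0.382 for Cpr67Fb, 0.371 for Cpr49Ac and 0.350 for Cpr49Aa. Cpr64Ab reached 0.2504 CPM, and Cpr64Aa, Cpr47Ed, Cpr65Eb, Cpr50Ca, Cpr11B, Cpr65Az, Cpr72Ea, Cpr92A and Cpr5C lay below that in every library. Cpr67Fa1 and Cpr67Fa2 are near-identical copies, and Cpr67Fb overlaps an antisense RNA gene, so their values are uncertain.

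Other genes of cuticle and chitin were read beside the Cpr genes in the same fit, where 0.864% of all genes tested were called higher on poor diet. Of 28 genes of the same protein family with other names, 6 passed the filter of the diet comparison, 3 with positive and 3 with negative values and a median log2 fold change of 0.02. Of these 1 was called, Acp65Aa, an adult cuticle protein gene. It averaged 266 ± 157 CPM on poor diet and 131 ± 53.8 CPM on standard diet (SD, n = 12 libraries each), with a log2 fold change of 0.90 ± 0.18 (SE, edgeR adjusted p = 0.0381). None of the 4 Tweedle genes tested was called by edgeR, with 1 at an unadjusted p below 0.05. Of 11 other cuticle and apical matrix genes 6 were higher on poor diet and 0 lower, with a median log2 fold change of 0.52, against -0.03 over all genes. These were Acp1, an adult cuticle protein gene, at 1.14 ± 0.25, Gasp and obst-B, which encode chitin-binding proteins, at 0.88 ± 0.13 and 0.52 ± 0.12, Vajk2 and Vajk3 at 0.71 ± 0.12 and 0.71 ± 0.11, and f, an actin-bundling protein gene of bristles, at 1.11 ± 0.15 (log2 fold change and SE). The gene f is also in the list of epidermis genes given below, so it is counted in both lists.

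The 32 chitin metabolism genes tested had a median log2 fold change of 0.14. Of these, 7 were higher on poor diet and 0 lower, against 0.864% of all genes called higher. They were kkv, which encodes chitin synthase, at 0.93 ± 0.21, exp, needed for chitin formation, at 0.72 ± 0.13, the chitin deacetylase genes serp, verm and Cda5 at 0.58 ± 0.13, 0.69 ± 0.12 and 0.77 ± 0.12, and the chitinase genes Cht6 and Cht7 at 0.97 ± 0.13 and 0.63 ± 0.13 (log2 fold change and SE). Of 18 pigmentation and sclerotization genes 2 were higher, y at 1.17 ± 0.22 and stw, a laccase gene, at 0.29 ± 0.06. In the comparison of regimes, edgeR called no gene of these 5 lists, with 23 of the 72 tested at an unadjusted p below 0.05, against 10.6% of all genes. Among them the 6 genes of the same protein family with other names had a median log2 fold change of -0.53, with 5 at an unadjusted p below 0.05. Lcp3 had 28.1 ± 13.3 CPM in Selected populations and 10.0 ± 6.24 CPM in Control populations (SD, n = 6 each). Acp65Aa was at 1.08 ± 0.33 and Pcp at -0.08 ± 0.42 (log2 fold change and SE). Lcp65Ag2, Lcp65Ag3 and Ccp84Ag, all highest in C3 on standard diet, were at -3.38 ± 1.38, -4.07 ± 1.42 and -0.98 ± 0.40. In that library Lcp65Ag2 was at 62.6 CPM and Lcp65Ag3 at 47.8 CPM, against 2.32 and 0.813 CPM in the next highest. The values of these 2 genes thus rest largely on 1 library. Both are counted in the 23 and the 5 above and enter the median of -0.53.

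Lists of marker genes were read for the other tissues that a carcass can hold, since in bulk tissue fewer cells of a type and less RNA per cell cannot be told apart. Of 10 epidermis genes tested, 9 had positive diet differences and 2 (Abd-B and f) were called higher on poor diet. Over all genes tested, 44.3% had positive diet differences and 0.864% were called higher. The 11 epidermis genes summed to 390 to 544 CPM on poor diet, against 292 to 459 CPM on standard diet, and none was at 0. The log2 differences on poor diet were also positive in 15 of 15 neuron, 11 of 11 oenocyte, 15 of 17 hemocyte and 19 of 24 muscle genes. They were negative in 11 of 12 eggshell, 21 of 27 midgut and 13 of 17 Malpighian tubule genes and in 13 of 24 germline genes. No gene of these 8 lists was called by edgeR, with 26 of 147 at an unadjusted p below 0.05, against 17.6% of all genes. Among the 147 were the 17 Malpighian tubule genes, 8 of them at an unadjusted p below 0.05, with a median log2 fold change of -1.04. With the germline and midgut scores of each library as covariates, 9 Cpr genes were called between the diets, 8 higher and 1, Cpr65Au, lower, where 3.92% of all genes were called in that fit. Between regimes, 51.7% of all genes tested were positive and 10.6% were at an unadjusted p below 0.05. There 22 of 24 germline genes were positive, with a median log2 fold change of 0.89, and 1 of the 24 was at an unadjusted p below 0.05. Of 11 eggshell genes 9 were positive, with a median of 1.49 and 5 at an unadjusted p below 0.05, and of 17 hemocyte genes 15 were negative, with a median of -0.36 and 8 at an unadjusted p below 0.05. The eggshell genes summed to 1.89 to 1986 CPM in Selected libraries and 3.67 to 1159 CPM in Control libraries. Germline genes summed to 354 to 2758 CPM in Selected libraries and 448 to 2312 CPM in Control libraries. The part of the epidermis, eggshell, Malpighian tubule, neuron, oenocyte, hemocyte and muscle genes in the Cpr differences was not tested.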

How the data were processed

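RNA-seq of 24 libraries was read from the deposited transcript tables. Transcript abundances came from kallisto 0.46.2 and build BDGP6, as the authors name them per the submitters' processing notes. Per the file headers, the deposited tables hold estimated counts and TPM for each transcript. A deposited whole-series table of 24 columns of log2 values was not used. Strand handling is not stated in the sources used here.

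Estimated counts and TPM were summed per gene with the BDGP6.54 annotation (release 115). Of 30944 transcripts, 133 had no gene there, with at most 0.391% of the counts of a library. Sums were rounded to whole numbers, filtered (filterByExpr) and tested with edgeR 4.0.16 (TMM normalisation, quasi-likelihood F test) in R 4.3.3, with Benjamini-Hochberg adjustment over all genes tested. The scripts were tested on simulated data. DESeq2 1.42.0, limma 3.58.1, RLE size factors, no filter, other models and each population left out were alternatives. Totals were 22.4 to 31.5 M counts, and the limit given for Cpr65Ay covers counting error only. The SE of an edgeR log2 fold change was its absolute value divided by the square root of F. Such an SE also holds the variation between libraries that the fit leaves.

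The labels give each population on both diets, which pairs its 2 libraries. Their deviations from the group means correlated at -0.23 to 0.69, with a mean of 0.22. Populations are the replicates, each with 1 pool of 10 carcasses on each diet. The members and lists were chosen with earlier results of these data known. Named with values were the members called in any comparison, the 10 highest mean TPM, the 8 smallest p for diet and for regime, and the 4 with the widest range over populations. The 5 genes most like Cpr92F were also named. The genes high in 1 library, and the minimum of 1 CPM for them, were chosen after their values were seen. No sequences are shown.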

Additional observations from a re-analysis of the deposited data

Results flagged for a closer look

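In groups of 6 populations, a library was marked where its gap to the nearest other library exceeded Dixon's 95% critical share of the group's range of log2 CPM, which chance gives in about 1 of 20 groups. Of 60 groups whose highest value was at least 1 CPM, 13 were marked, all of them Control populations on standard diet. Of the 13, 9 belong to the genes chosen because they were high in C3 on standard diet, so their marks were fixed by that choice. The other named Cpr genes had 4 marks in 51 groups, or 7.84%. Some of these genes have the widest ranges over populations, a rule for naming, and several vary together. Their share therefore cannot be set against 1 in 20.

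C1 was the lowest library for 3 of these 4. The gap took 0.646 of the range for Cpr92F (8.75 CPM), 0.678 for Cpr49Ah (0.508 CPM) and 0.72 for Cpr97Ea (1.20 CPM). Without C1 the log2 fold change between the diets was 1.22 for Cpr92F, 1.15 for Cpr49Ah and 0.82 for Cpr97Ea, and edgeR's adjusted p was 0.0453, 0.0355 and 0.0536 in the same order. C4 was the lowest library for Cpr47Ef, at 0.381 CPM, where the gap took 0.63 of the range.

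C3 was the highest library for the other 9. The gap took 1.0 of the range for Cpr65Ax1, 0.91 for Cpr31A, 0.859 for Cpr49Ag, 0.847 for Cpr78Cc, 0.837 for Cpr65Av, 0.836 for Cpr65Ax2, 0.818 for Cpr47Eg, 0.804 for Cpr65Ea and 0.789 for Cpr56F. These genes did not pass the filter of the diet comparison, so none of the calls rests on their values.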

How the results depend on the processing

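For the diet comparison edgeR called 7 Cpr genes. The count was 0 with no replicate block, that is, without the pairing by population, and 0 to 8 with each population left out. It was 10 with DESeq2, 6 with RLE size factors, 6 with no filter, 7 with limma-voom and 9 with germline and midgut covariates. In the covariate fit 3.92% of all genes were called. The shares for the other alternatives of the diet comparison are not given here. These counts alone therefore do not tell a change in the Cpr genes from a change over all genes. For the regime comparison the count was 0 with edgeR, 4 with DESeq2 and 2 with limma-voom. The population number as a replicate block across regimes left it at 0. Same-numbered populations correlated at -0.39 to -0.02, and pairs of different numbers were not compared. For diet the count was 1 in Control with DESeq2 and 8 in Selected with DESeq2, where leaving out a population gave 0 to 5. For regime on poor diet it was 4 with DESeq2 and 0 to 1 with a population left out. The interaction and the regime comparison on standard diet stayed at 0 in all alternatives run. The cause of these differences was not tested.

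Signs turned only for values near 0 that were not called. Cpr49Ab between the diets was -0.0515 with covariates and between -0.0309 and 0.0891 with a population left out. Between regimes, Cpr65Au was 0.0219 with the number block, 0.0234 with limma-voom, 0.41 with covariates and between -0.17 and 0.25 with a population left out. Cpr67B was -0.0062 with the number block and between -0.0829 and 0.0807 with a population left out. Cpr62Bb was -0.0188 with covariates and between -0.0519 and 0.24 with a population left out. Genes under about 1 CPM rest on few counts, and a call lost with 1 population left out also has fewer samples.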
